A study of Mus musculus with 6 samples.

Results

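Transcripts of 10 heat shock protein genes were followed in mouse dendritic cells, with and without hydrogen peroxide. The cells are called immature, a name for dendritic cells that take up antigen before they mature. The 10 genes were chosen by name, as cytosolic and mitochondrial heat shock proteins, with earlier results of these data known. All 10 had a row among the 17567 genes in the files, and all 10 passed the filter on low counts that left 12209 genes for testing. They are Hspa8, Hspa1a, Hspa1b, Hsph1, Dnajb1, Dnaja1, Hsp90aa1, Hsp90ab1, Hspd1 and Hspe1.

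The H2O2 group received 100 µM H2O2 for 24 h, and the control group is labelled control. Both groups were bone marrow cells of male C57BL/6 mice aged 6 weeks, grown with GM-CSF and interleukin-4 to day 6, with purification on CD11c beads described in the treatment protocol. No genetic change is given for either group. GEO's labels give 3 samples per group, but the values of H2O2 replicate 3 equal those of H2O2 replicate 1 in all 17567 genes, so they were counted as 1 library. This left 2 H2O2 and 3 control libraries. Separate mice or cultures are not named in the labels, so p-values measure only the spread between these libraries, which may be technical.

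The libraries fell into 2 sets, and each H2O2 library was compared within its own set. GEO's labels do not give these sets, and what separates them beside the Y-linked transcripts cannot be told from the labels. Set A holds H2O2 replicate 1 and control replicate 1, and set B holds H2O2 replicate 2 and control replicates 2 and 3. Transcripts of 4 Y-linked genes summed to 1608 counts in H2O2 replicate 1 and 1756 counts in control replicate 1. In set B they summed to 7 counts in H2O2 replicate 2, against 2 and 5 counts in control replicates 2 and 3, although all mice were labelled male. Library totals lay between 16232604 and 16672491 estimated counts. Itgax, the CD11c gene, stood at 1496 and 2177 CPM in H2O2 libraries, against 1474, 2154 and 1940 CPM in control libraries. CPM is the usual depth-scaled unit, here from the adjusted library size. Ccr7, a dendritic cell marker, differed by set, at 1275 CPM in H2O2 and 1466 CPM in control in set A. In set B it stood at 356.5 CPM in H2O2, against 445.0 and 422.0 CPM in control libraries. Over the tested dendritic cell markers the median log2 difference of set A minus set B was 0.15. How mature the cells of each set were was not tested.

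Heat shock proteins are chaperones that bind unfolded or damaged proteins and help them fold. In the cytosol, J proteins deliver clients to HSP70 and stimulate its ATPase, exchange factors such as HSP110 release ADP from HSP70, and HSP90 takes over many clients for final maturation. In the mitochondrial matrix, HSP60 and its lid HSP10 enclose proteins in a folding chamber. Several of the genes are targets of heat shock factor HSF1, which chaperones hold inactive in resting cells and which binds repeats of GAA in alternating orientation, called heat shock elements. In dendritic cells, HSP70 and HSP90 are also known to carry peptides for antigen presentation.

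Promoter windows are shown for Hspe1, Hsph1, Hspa1b and Dnaja1, among the genes whose windows held letters of such an element. The matching windows of Hspa1a and Hspd1 are described after the sequences. Of Hsph1 and Hsp90aa1, the genes called below, only Hsph1 had a window. Members with and without a change therefore cannot be compared as groups by sequence. RefSeq windows of 300 bases, beginning 250 before a start, were given for 7 of the 10 genes (GRCm38.p6). A gene can have several windows. The starts of both Hsph1 windows, and of some windows of Hspd1, Dnaja1 and Dnajb1, lie inside the gene's annotated span. Hspa8, Hsp90aa1 and Hsp90ab1 had none. The letters GAANNTTC or TTCNNGAA, each of which reads the same on both strands, were in a window of 6 of the 7 genes, all but Dnajb1. Over all 27025 genes with a window the share was 17.0%, and over all 32851 windows of this length it was 15.1%. At least 3 adjoining units in alternating orientation were in a window of Hspd1, Hspe1 and Hsph1, against 0.662% of all genes. The 2 pairs can overlap, as they do there. A match is a description of letters and not a binding site. Capitals mark the matched letters below. The windows are chr1:55087898-55088197 on the plus strand for Hspe1, chr5:149636287-149636586 on the minus strand for Hsph1, chr17:34959189-34959488 on the minus strand for Hspa1b and chr4:40722218-40722517 on the plus strand for Dnaja1.
Hspe1: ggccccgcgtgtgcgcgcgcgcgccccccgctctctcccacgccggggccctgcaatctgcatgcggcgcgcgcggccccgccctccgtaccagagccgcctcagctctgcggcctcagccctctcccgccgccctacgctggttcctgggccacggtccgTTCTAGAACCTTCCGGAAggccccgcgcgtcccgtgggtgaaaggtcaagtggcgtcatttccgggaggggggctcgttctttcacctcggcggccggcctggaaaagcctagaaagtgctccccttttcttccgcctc
Hsph1: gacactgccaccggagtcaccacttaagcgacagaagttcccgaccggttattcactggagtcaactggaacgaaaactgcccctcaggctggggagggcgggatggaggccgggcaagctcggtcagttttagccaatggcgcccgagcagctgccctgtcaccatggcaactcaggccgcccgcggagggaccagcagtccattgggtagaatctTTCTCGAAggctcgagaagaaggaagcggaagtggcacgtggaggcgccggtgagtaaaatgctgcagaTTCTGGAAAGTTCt
Hspa1b: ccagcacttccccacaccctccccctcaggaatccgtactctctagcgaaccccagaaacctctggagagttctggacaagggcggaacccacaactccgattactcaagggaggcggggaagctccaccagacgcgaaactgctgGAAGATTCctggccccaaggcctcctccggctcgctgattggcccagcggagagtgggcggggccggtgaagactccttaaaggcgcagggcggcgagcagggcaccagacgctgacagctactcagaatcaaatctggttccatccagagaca
Dnaja1: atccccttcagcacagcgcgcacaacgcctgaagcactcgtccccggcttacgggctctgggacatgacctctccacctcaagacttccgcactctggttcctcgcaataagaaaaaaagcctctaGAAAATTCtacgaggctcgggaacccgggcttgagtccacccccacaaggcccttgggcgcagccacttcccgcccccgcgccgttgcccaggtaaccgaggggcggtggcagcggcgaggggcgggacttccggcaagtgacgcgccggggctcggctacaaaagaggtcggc

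Hspd1 and Hspe1 lie head to head on chromosome 1, and 285 bases of one Hspd1 window are the same stretch as the Hspe1 window, read on the other strand. These windows therefore carry the same matched letters, which begin 89 bases before the Hspe1 start. A second Hspd1 window, chr1:55088194-55088493, shares 4 bases with the Hspe1 window and holds none of the letters. In the Hsph1 window shown, a first pair begins 33 bases before that window's start and a run of 3 units begins 36 bases after it. In the other Hsph1 window the same letters begin 54 bases before its start and 15 bases after it. Hspa1a and Hspa1b match in 296 of the 300 bases. The differences, given as Hspa1a base, position from the 5′ end of the window, and Hspa1b base, are C44T, T47C, T249G and C276T. All 4 lie outside the capitals. Because they share letters, Hspd1 and Hspe1 are not independent entries in the counts of genes with matches above. Nor are Hspa1a and Hspa1b. The other Dnaja1 windows held none of the letters.

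Hsph1 and Hsp90aa1 rose in H2O2-treated cells, each by about the same size, 1.30-fold and 1.29-fold. The other 8 heat shock genes did not pass the test in either direction, Hspa8 and Hsp90ab1, by far the most abundant, included. A call needed an adjusted p of at most 0.05 over all 12209 tested genes by edgeR's quasi-likelihood test with a term for the set. Of the 10 genes, 2 were called higher and 0 lower, against a background of 3.93% called higher and 4.61% called lower among all tested genes. Of the 10 fold changes 7 were above 0 on the log2 scale, and their median was 0.15, against 0.01 over all tested genes. None of the 10 reached the series' own threshold of 1 on the log2 scale in a call. Without the set term none of the 10 was called and 1, Hsp90aa1, had an unadjusted p under 0.05, beside 0 calls and 853 such genes among all tested. In bulk RNA, a change in the number of cells of a type cannot be told apart from a change in RNA per cell.

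**Figure D1:**
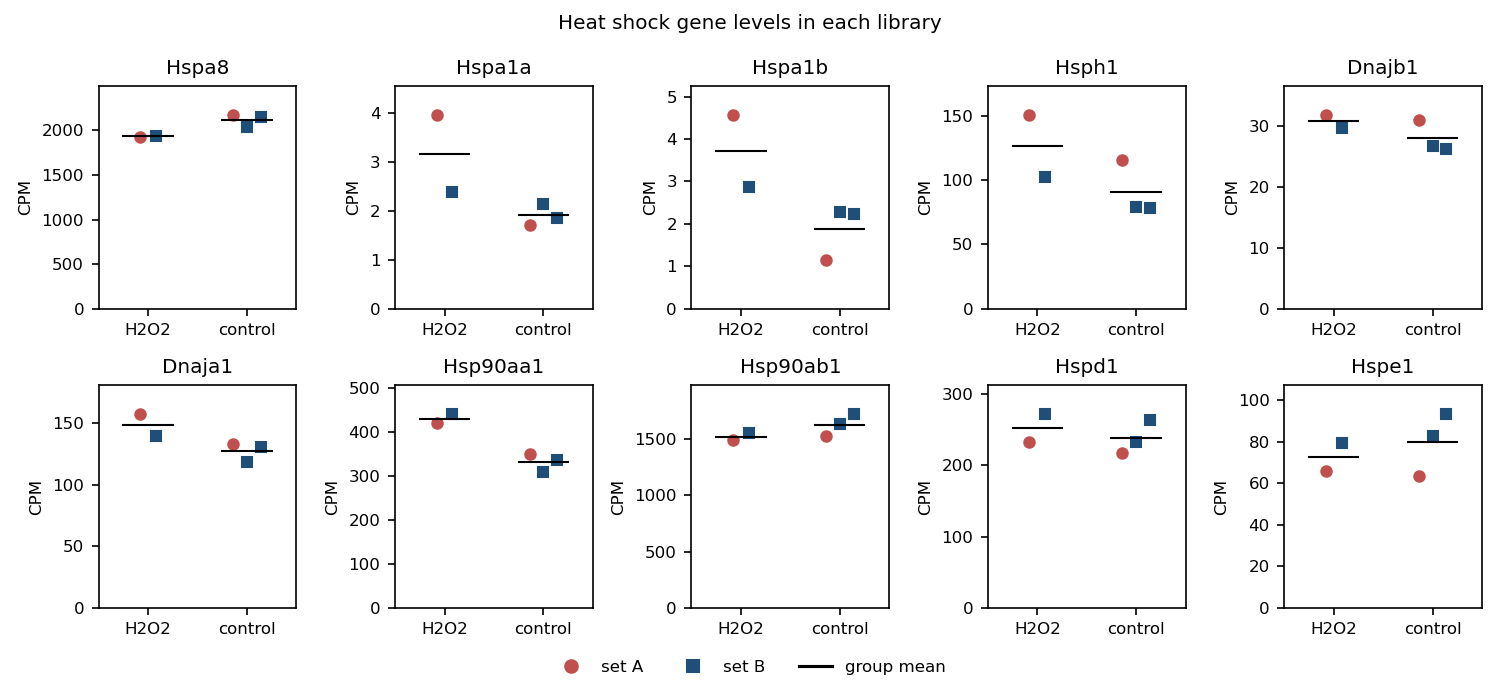
Level of each of the 10 heat shock genes (vertical axis, CPM from 0, a separate scale per gene) in the 2 H2O2 and 3 control libraries, with circles for set A, squares for set B and lines for group means. Hsp90aa1 stands at 419.8 and 440.7 CPM in H2O2 libraries, above all control libraries, while Hsph1 is higher in H2O2 within each set but overlaps across sets.

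Every H2O2 library stood above every control library for 4 of the 10 genes, Hspa1a, Hspa1b, Hsp90aa1 and Dnaja1, against 13.0% of all tested genes. Reads were divided between Hspa1a and Hspa1b, as described below. They are therefore not independent entries in these counts, nor in the count and median of fold changes above. Hspa8 alone stood below in the same way, against 10.7% of all tested genes. Read within the sets, 7 genes were above the control libraries of their own set in both sets (28.5% of all tested genes). Hspa8 and Hsp90ab1 were below them (28.0%). Hspe1 was the only one of the 10 with opposite directions in the 2 sets. Counting intervals at 95% (exact binomial) included 1 for Dnajb1 in both sets, Hspa1a and Hspa1b in set B and Hspe1 in set A. Those directions lie within counting error.

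The levels per kilobase of transcript spanned about 3 orders of magnitude. Over the 5 libraries Hspa8 averaged 926.4 ± 51.5 CPM per kilobase (SD, n = 5), and Hsp90ab1 came next with 628.0 ± 36.9. Hsp90aa1 (113 ± 17.2), Hspd1 (101 ± 9.42) and Hspe1 (99.4 ± 15.9) followed, and these 3 neighbours did not differ beyond their spread over all 5 libraries. In the H2O2 libraries alone, Hsp90aa1 (128.0 and 134.3 CPM per kilobase) stood above Hspd1 (96.1 and 112) and Hspe1 (84.9 and 103). Dnaja1 (30.2 ± 3.16) and Hsph1 (29.8 ± 8.50) also lay within each other's spread, with Dnajb1 at 9.93 ± 0.845 below them. The inducible pair was lowest, with Hspa1b at 0.933 ± 0.448 and Hspa1a at 0.811 ± 0.303 CPM per kilobase. Hspa8 and Hsp90ab1 together held 76.2% and 76.6% of the counts of the 10 genes in H2O2 libraries, against 80.2%, 81.1% and 80.6% in control libraries. The 10 genes together stood at 4484 and 4554 CPM in H2O2 libraries and at 4607, 4528 and 4795 CPM in control libraries, so their summed level overlapped between the groups.

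Hspa8 (chr9:40801276-40805202) encodes HSC70, the HSP70 that resting cells make at all times. It stood at 1930 and 1934 CPM in H2O2 libraries, against 2172, 2040 and 2144 CPM in control libraries. Both H2O2 libraries were below all control libraries, by a small margin. The fitted log2 change was -0.14 ± 0.069 (SE), with an adjusted p of 0.243 by edgeR, so it was not called.

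Hspa1a (chr17:34969359-34972156) and Hspa1b (chr17:34956429-34959238) encode the inducible HSP70 and are near-identical copies. Their estimated counts were not whole numbers, but the sum of the 2 was whole in each of the 5 libraries, within the 2 decimals of the files, so the authors' counting divided reads between them. The pair is therefore best read as a sum. It came to 144 and 81 counts in H2O2 libraries, against 49, 73 and 67 counts in control libraries. The highest count was in H2O2 replicate 1, and the lowest was in the control library of the same set. Hspa1b took 53.6% and 54.8% of the pair's counts in H2O2 libraries, against 40.0%, 51.6% and 54.5% in control libraries.

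On the scale of CPM the pair stood at 8.51 and 5.25 in H2O2 libraries and at 2.85, 4.41 and 4.09 in control libraries, a mean of 6.88 ± 2.31 (SD, n = 2) against 3.78 ± 0.825 (SD, n = 3). The groups did not overlap. In set A the pair was 2.99 times as high in H2O2 as in control, with a counting interval at 95% (exact binomial) of 2.15 to 4.22. In set B the ratio was 1.24, with an interval of 0.927 to 1.64 that includes 1. These intervals cover counting error only. The change of the pair differed between the sets by -1.27 on the log2 scale, set B minus set A, with an unadjusted p of 0.00665 and an adjusted p of 0.166 in edgeR's test of the interaction, so the difference was not called. Fitted as 1 row, which was added after seeing the data, the pair had a log2 change of 0.85 ± 0.288 with an adjusted p of 0.114 by edgeR.

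Hspa1b by itself stood at 4.56 and 2.88 CPM in H2O2 libraries, against 1.14, 2.28 and 2.23 CPM in control libraries (log2 0.99 ± 0.365, adjusted p = 0.137 by edgeR). Hspa1a stood at 3.95 and 2.37 CPM in H2O2 libraries, against 1.71, 2.14 and 1.86 CPM in control libraries (log2 0.71 ± 0.281, adjusted p = 0.159 by edgeR). These were the 2 largest fitted changes of the 10 and also the 2 with the largest errors, at the lowest counts. The change of Hspa1b differed between the sets by -1.64 on the log2 scale, set B minus set A. Its unadjusted p was 0.00761 and its adjusted p 0.179 in edgeR's test of the interaction, which called 0.0164% of all tested genes and none of the 10.

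Hsph1 (chr5:149616843-149636498) encodes HSP110, an HSP70 relative that acts as exchange factor for HSP70 and keeps aggregated proteins soluble. It stood at 150.6 and 102 CPM in H2O2 libraries, against 115, 79.3 and 78.0 CPM in control libraries. The groups overlapped across sets, because control replicate 1 lay above H2O2 replicate 2. Within the sets the difference was nearly the same: the H2O2 to control ratio was 1.31 in set A (counting interval 1.23 to 1.39) and 1.30 in set B (1.22 to 1.38). The fitted log2 change was 0.38 ± 0.065, with an adjusted p of 0.0251 by edgeR, the smallest p of the 10. The Hsph1 level of set A exceeded that of set B by 0.56 on the log2 scale, more than the change with H2O2. Its call was lost without the set term (adjusted p = 0.732), without control replicate 2 (0.0629), without control replicate 3 (0.106) without H2O2 replicate 2 (0.130) and with no filter on low counts (0.056), each by edgeR, among other settings.

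Among the J proteins neither gene was called. Dnaja1 (chr4:40722468-40734965) encodes a farnesylated type of J protein that works with HSC70. It stood at 157 and 139 CPM in H2O2 libraries, against 133, 118 and 131 CPM in control libraries. Both H2O2 libraries were above all control libraries (log2 0.19 ± 0.076, adjusted p = 0.157 by edgeR). Dnajb1 (chr8:83608175-83612653) encodes HSP40, a J protein that works with HSP70. It stood at 31.8 and 29.7 CPM in H2O2 libraries and at 30.9, 26.7 and 26.2 CPM in control libraries, with overlapping groups and a log2 change of 0.11 ± 0.086 (adjusted p = 0.448 by edgeR).

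Of the cytosolic HSP90 genes 1 was called. Hsp90aa1 (chr12:110691036-110696395) encodes the stress-inducible alpha form. It stood at 419.8 and 440.7 CPM in H2O2 libraries, against 349.4, 309.8 and 336.0 CPM in control libraries. Both H2O2 libraries were above all control libraries, at a mean of 430.3 ± 14.8 CPM (SD, n = 2) against 331.7 ± 20.1 CPM (SD, n = 3). The H2O2 to control ratio was 1.20 in set A (counting interval 1.16 to 1.24) and 1.37 in set B (1.32 to 1.41). The fitted log2 change was 0.37 ± 0.077 with an adjusted p of 0.0359 by edgeR. The call was lost without the set term (adjusted p = 0.704), without control replicate 2 (0.0938), without control replicate 3 (0.115) without H2O2 replicate 2 (0.221) and with no filter on low counts (0.0718), each by edgeR, among other settings.

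Hsp90ab1 (chr17:45567778-45573261) encodes the beta form, made in resting cells. It stood at 1488 and 1552 CPM in H2O2 libraries, against 1522, 1634 and 1718 CPM in control libraries. Each H2O2 library was below the control libraries of its own set, while across sets the groups overlapped. Its log2 change was -0.08 ± 0.069 with an adjusted p of 0.513 by edgeR.

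**Figure D2:**
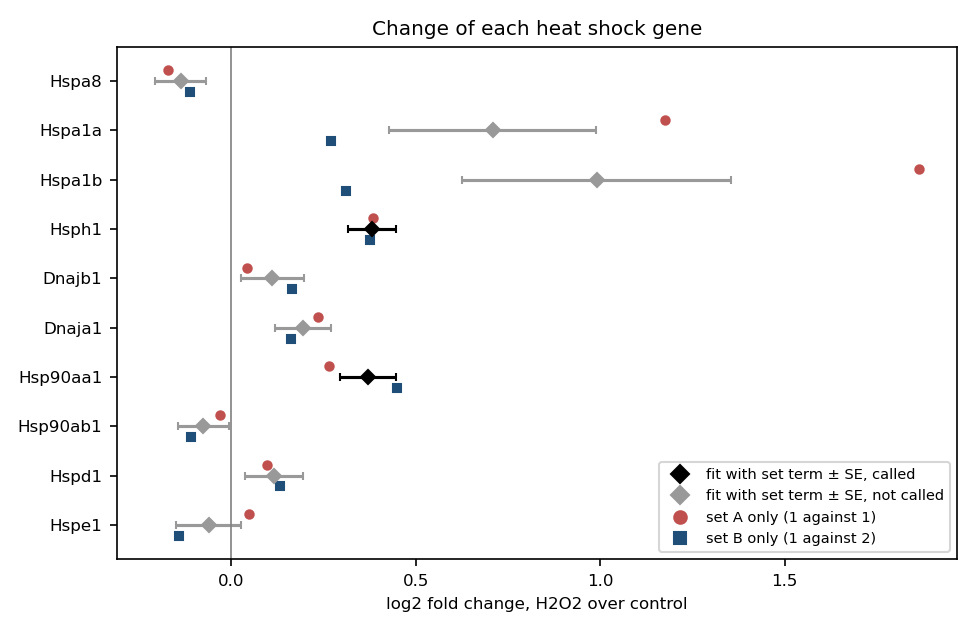
Log2 fold change of H2O2 over control (horizontal axis) for the 10 heat shock genes, as fitted with the set term (diamonds with SE, black where called) and within set A (circles) and set B (squares). Hsph1 and Hsp90aa1 are the only black diamonds, and Hspa1a and Hspa1b have the widest gap between the sets.

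Ratios between partner genes within a library do not depend on how libraries are scaled. They were formed after the gene values were known, and 5 were computed. The ratio of Hsp90aa1 to Hsp90ab1 counts was 0.282 and 0.284 in H2O2 libraries, against 0.230, 0.190 and 0.196 in control libraries. The H2O2 libraries were nearly equal and both above all control libraries, by 1.23 times in set A and 1.47 times in set B. An exact permutation test of the log2 ratio (two-sided) gave p = 0.1, the smallest that 2 libraries against 3 allow. This test, used for all ratios here, exchanges libraries across the sets and so does not compare within them. The Hspa1a and Hspa1b sum came to 4.41 and 2.71 counts per 1000 Hspa8 counts in H2O2 libraries, against 1.31, 2.16 and 1.91 in control libraries (exact permutation p = 0.1). Hsph1 came to 7.80 and 5.28 counts per 100 Hspa8 counts in H2O2 libraries, against 5.31, 3.89 and 3.64 in control libraries (exact permutation p = 0.3), 1.47 times as many in set A and 1.40 times in set B. The Dnaja1 to Dnajb1 ratio per kilobase was 3.22 and 3.05 in H2O2 libraries and 2.81, 2.88 and 3.25 in control libraries, with overlap (exact permutation p = 0.5). With 5 ratios and a smallest possible p of 0.1, no adjusted value could pass 0.05.

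**Figure D3:**
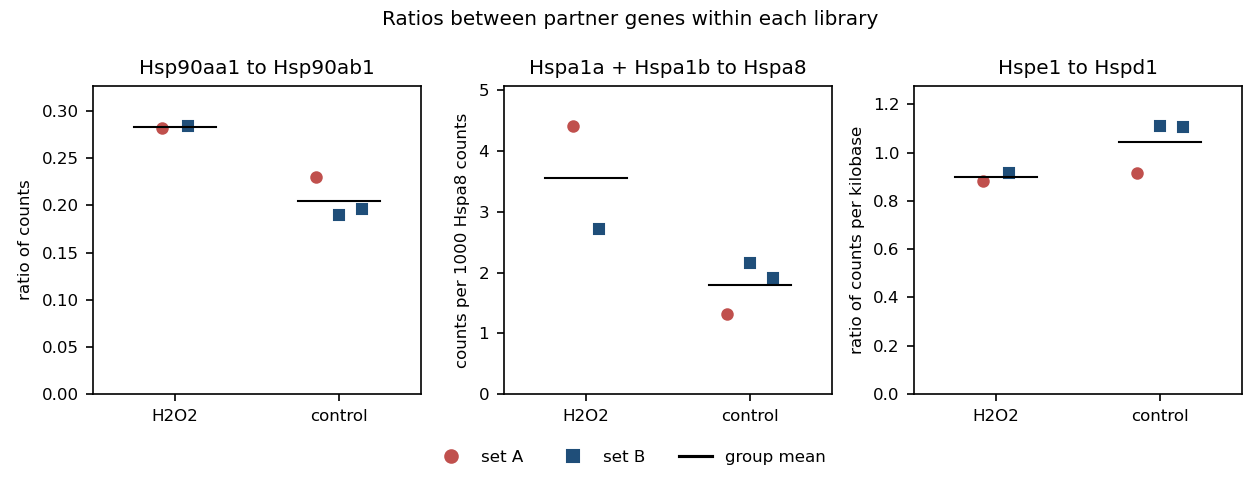
Ratios between partner genes in each library (vertical axes from 0: ratio of counts, counts per 1000 Hspa8 counts, and ratio of counts per kilobase), with the 2 H2O2 libraries on the left and the 3 control libraries on the right of each panel. The Hsp90aa1 to Hsp90ab1 ratio is 0.282 and 0.284 in H2O2, above all control libraries, and the Hspe1 to Hspd1 ratio of the set A control library, 0.914, lies among the H2O2 values.

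The mitochondrial chaperonin genes did not pass the test. Hspd1 (chr1:55077833-55088243) encodes HSP60, the barrel of the chaperonin. It stood at 233 and 272 CPM in H2O2 libraries, against 218, 233 and 264 CPM in control libraries. Each H2O2 library was above the control libraries of its own set, and the log2 change was 0.12 ± 0.078 (adjusted p = 0.382 by edgeR). Hspe1 (chr1:55088148-55091317) encodes HSP10, the lid. It stood at 65.8 and 79.5 CPM in H2O2 libraries and at 63.6, 82.6 and 93.2 CPM in control libraries, higher in set A and lower in set B (log2 -0.06 ± 0.088, adjusted p = 0.688 by edgeR). The log2 difference of set A minus set B was -0.20 for Hspd1 and -0.39 for Hspe1. The Hspe1 to Hspd1 ratio per kilobase was 0.884 and 0.917 in H2O2 libraries, against 0.914, 1.11 and 1.11 in control libraries (exact permutation p = 0.3). Within the sets it was 0.967 times the control value in set A and 0.827 times the control mean in set B. The annotated spans of the 2 genes overlap by 96 bases on opposite strands, and the strand setting of the counting is not given in the sources used here.

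The other chaperone genes were 114 in 9 lists written by pathway. Of the 104 that were tested, 3 rose and 3 fell, against 3.93% called higher and 4.61% called lower among all tested genes, and their median log2 change was 0.00, against 0.01 over all tested genes. These shares are near those of all genes. Without the set term no gene of any list was called. Among other J proteins, 1 of 26 rose and none fell. That gene, Dnajb4, a heat-inducible relative of Dnajb1, stood at 31.6 and 33.0 CPM in H2O2 libraries, against 23.4, 22.2 and 20.2 CPM in control libraries (log2 0.55 ± 0.099, adjusted p = 0.0264 by edgeR). The most abundant, Dnajc5, stood at log2 0.10 ± 0.068. Among the BAG and other exchange factors of HSP70, Bag5 rose (log2 0.46 ± 0.109, adjusted p = 0.0497 by edgeR), 1 of 7, and the most abundant, Bag6, stood at 0.17 ± 0.068. None of 7 tested other HSP70 and HSP110 genes was called, and the most abundant, Hspa4, stood at 0.05 ± 0.065.

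Among 23 HSP90 cochaperones only Fkbp5, which binds steroid receptor complexes, changed. It fell by 0.52 ± 0.088 on the log2 scale (51.6 and 68.7 CPM in H2O2 libraries, against 67.1, 102 and 110.2 CPM in control libraries, adjusted p = 0.0244 by edgeR). St13, the most abundant of them, stood at 0.09 ± 0.075. Among 19 mitochondrial chaperones and proteases only Htra2, a protease of the intermembrane space, changed, falling by 0.37 ± 0.075 (adjusted p = 0.0331 by edgeR). Hspa9, the mitochondrial HSP70, stood at -0.05 ± 0.084. Of 8 subunits of TRiC, the cytosolic chaperonin, Cct3 rose (0.28 ± 0.067, adjusted p = 0.0483 by edgeR), while the most abundant, Tcp1, stood at -0.27 ± 0.065 (adjusted p = 0.0537 by edgeR). None of 6 prefoldin subunits was called, with a median of -0.13 and Pfdn5, the most abundant, at -0.12 ± 0.066.

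Genes listed as small heat shock proteins were scarce, and 3 of the 9 with a row were tested. Hspb6 fell, with 2.78 and 2.85 CPM in H2O2 libraries, against 7.03, 5.02 and 6.04 CPM in control libraries (log2 -1.13 ± 0.196, adjusted p = 0.0252 by edgeR), and Hspb11 stood at -0.50 ± 0.160. Cryab stood at 0.16 ± 0.180, higher in H2O2 within each set but overlapping across sets. Neither Hspb11 nor Cryab was called. The median of the 3 tested genes is the Hspb11 value, and the name of Hspb11 does not show that it acts as a chaperone. None of 5 tested heat shock factors and regulators was called. Hsf1 stood at 12.9 and 14.1 CPM in H2O2 libraries, against 14.2, 17.3 and 18.0 CPM in control libraries (log2 -0.25 ± 0.115, adjusted p = 0.215 by edgeR), and the most abundant, Hsf2, stood at -0.03 ± 0.096. Of 13 tested heat-inducible genes outside the 10, which in part repeat the lists above, 10 had a log2 change above 0. Dnajb4 was the only one called, against 3.93% called higher among all tested genes. The median was 0.09, against 0.01 over all tested genes.

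**Figure D4:**
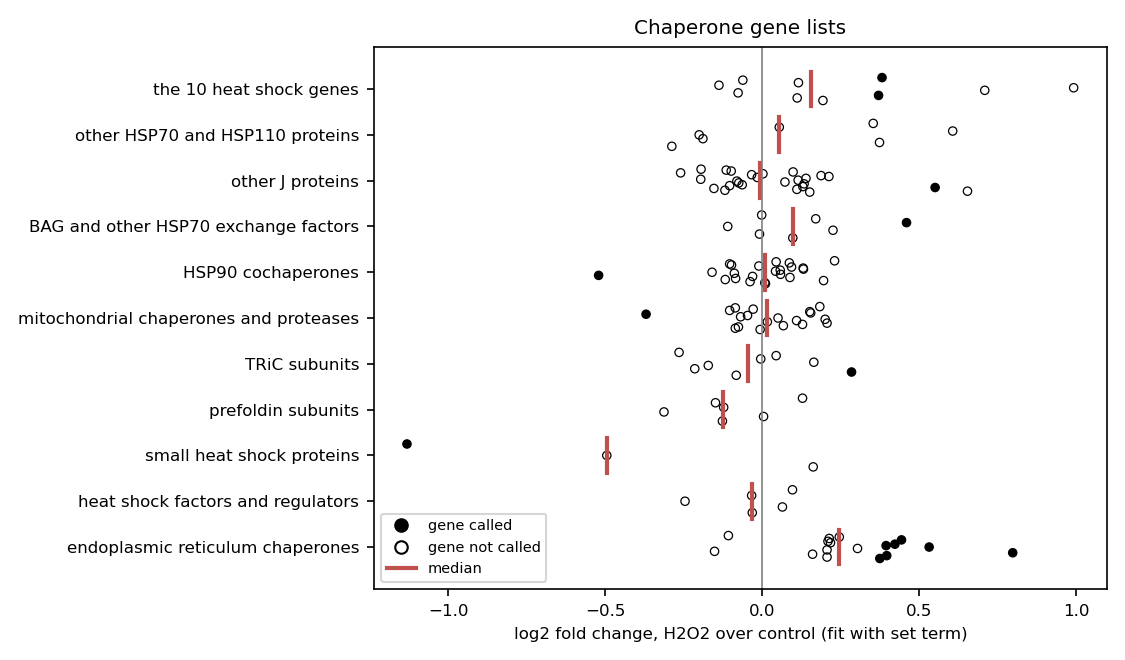
Log2 fold change of H2O2 over control from the fit with the set term (horizontal axis) for every tested gene of the chaperone lists, one list per row, with filled points for called genes and a red bar for the median. The 10 heat shock genes have a median of 0.15 and the endoplasmic reticulum chaperones one of 0.25. The list of small heat shock proteins, with 3 genes, has one of -0.50, which is the Hspb11 value.

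Chaperones of the endoplasmic reticulum, another folding compartment, included 7 of 17 genes that rose and 0 that fell, against 3.93% and 4.61% of all tested genes. Their median was 0.25, and the heat shock genes had 2 of 10 and a median of 0.15. Hspa5, its HSP70, stood at 886.2 and 858.1 CPM in H2O2 libraries, against 649.0, 554.8 and 583.9 CPM in control libraries (log2 0.53 ± 0.071, adjusted p = 0.0177 by edgeR). Manf (0.42 ± 0.066) and Pdia4 (0.44 ± 0.076) rose as well, and the most abundant, P4hb, stood at 0.22 ± 0.073. The difference between the 2 lists was not tested.

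Other gene groups moved in the same libraries, and their part in the heat shock values was not tested. The counts below stand against 3.93% called higher and 4.61% called lower among all tested genes. Of 14 NRF2 targets, antioxidant genes known to respond to peroxide, 10 rose and none fell, with Nqo1 at 1.22 ± 0.088 and Hmox1 at 1.13 ± 0.086 on the log2 scale. Of 18 tested immediate early genes 3 rose and none fell. Of 22 cell cycle genes 18 fell and none rose, and they summed to 975.6 and 528.6 CPM in H2O2 libraries, against 2039, 766.7 and 1208 CPM in control libraries. Dendritic cell markers fell in 7 of 10 tested cases, rose in none, and summed to 7379 and 8208 CPM in H2O2 libraries, against 9213, 9651 and 9263 CPM in control libraries. Macrophage and monocyte markers (1 of 11 rose, 2 fell) summed to 34380 and 41235 CPM in H2O2 libraries, against 30265, 34296 and 32728 CPM in control libraries. Most of this sum is Chil3, which was not called, at 30671 and 37895 CPM in H2O2 libraries, against 27191, 31372 and 29922 CPM in control libraries. Neutrophil markers (1 of 11 rose, 3 fell) summed to 964.1 and 1820 CPM in H2O2 libraries, against 556.9, 1149 and 1312 CPM in control libraries. Most of this sum is Mmp8, the 1 that rose, while the median log2 change of the list was -0.60. Mast cell, basophil and eosinophil markers (8 of 10 fell, none rose) summed to 41.6 and 42.3 CPM in H2O2 libraries, against 90.4, 87.3 and 112 CPM in control libraries. Of 8 lymphocyte markers 1 was tested and not called, and they summed to at most 2.20 CPM in H2O2 libraries and 4.29 CPM in control libraries. No marker in these 5 lists was at 0 in all 5 libraries.

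Pearson's r over the 5 libraries described which genes had a pattern most like the 10. The 4057 candidates averaged 50 CPM or more, and the libraries share their set and depth, so no p is given. The average of the 10 centred log2 profiles stood at 0.23 and 0.08 in H2O2 libraries, against -0.16, -0.10 and -0.05 in control libraries. Hspa1a and Hspa1b, with the largest changes and the fewest counts, weigh most in the gap between the groups in this average. Nsfl1c (r = 0.991), Rrp7a (0.988), Flii (0.984), Agap3 (0.980) and Rabgap1 (0.979) were most like it, and 24 candidates had an r above 0.95. For the 2 called genes alone, Cr1l (r = 1.000) was most like Hsph1, with 200 candidates above 0.95, and Hnrnph2 (0.995) was most like Hsp90aa1, with 55. The nearest to Hspa8 was Kpnb1 (0.996), to Hspa1a Tmem248 (0.989), to Hspa1b Ucp2 (0.994) and to Hsp90ab1 Dok2 (0.996). The nearest to Dnaja1 was Nfatc3 (0.996), to Dnajb1 Tut4 (0.999), to Hspd1 Psmd12 (0.997) and to Hspe1 Nfatc1 (0.997).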

How the data were processed

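Transcripts were measured in 6 GEO samples, 3 per group. Per the file headers, the authors deposited a read count for each gene, treated here as an estimated count that was not scaled, since between 8.38% and 9.03% of values per library were not whole. HISAT, Bowtie2 and the build GRCm38.p6 are listed in the submitters' processing notes, without roles. Counter, annotation and strand setting: not given in the sources used here. So near-identical or overlapping genes may share reads. RefSeq symbols (GRCm38.p6) matched 17520 of 17567 rows, and the 47 others held 0.13% of counts.

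Counts were rounded, filtered with edgeR's filterByExpr (minimum count 10, minimum total 15), scaled with TMM factors and tested with edgeR's quasi-likelihood F test, with the set as covariate (leaving 2 residual degrees of freedom) and Benjamini-Hochberg adjustment. CPM uses the TMM-adjusted library size. Lengths are medians of GENCODE M21 coding transcripts matched to RefSeq. Fits ran in edgeR 4.0.16 under R 4.3.3, with DESeq2 1.42.0 and limma 3.58.1 as alternatives. The fit was also run on simulated counts with the same set term. The changes built into them were larger than those of Hsph1 and Hsp90aa1. That run therefore tests neither these calls nor the choice of the set term. The 10 genes, all 21 gene lists and the set term were chosen with earlier results of these data known. From each list the rule names at most 3 calls, by smallest p, plus its highest-expressed gene. Marker, cell cycle and immediate early lists are given mainly by counts and sums, with Itgax, Ccr7, Chil3 and Mmp8 named. Hsf1, Cryab and Ccr7 were added after their values were seen. One gene that the rule names is not reported here. Counting intervals were widest for Hspa1a and Hspa1b. Those of Dnajb1 in both sets and of Hspe1 in set A included 1. Alternatives covered the set term, a replicate block, DESeq2, limma-voom, scaling, the filter and leaving out each library.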

Additional observations from a re-analysis of the deposited data

How the results depend on the processing

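The 2 calls among the heat shock genes, Hsph1 and Hsp90aa1, were kept by DESeq2, limma-voom, RLE size factors and library totals, where the count stayed at 2. It was 0 without the set term (0 of all tested genes called), with a replicate block (554 of all genes) and with no filter on low counts (102 of all genes) against 1043 of all genes with the set term and the filter. Leaving out 1 library each gave between 0 and 2 calls among the 10 and between 1 and 2064 among all genes. Both lost their call without control replicate 2, control replicate 3 or H2O2 replicate 2, and with H2O2 replicate 2 left out only 1 H2O2 library remains. Set A has 1 library per group, so fits without one of them compare set B only. With the replicate block the adjusted p was 0.0752 for Hsph1 and 0.0779 for Hsp90aa1 by edgeR. In the other chaperone lists the block ended the calls of Dnajb4 (0.0574), Bag5 (0.136), Cct3 (0.139) and Htra2 (0.0939), and kept Fkbp5 (0.0401) and Hspb6 (0.0352). Of the endoplasmic reticulum chaperones it ended those of Hyou1 (0.0606), Calr (0.0664) and Creld2 (0.0957). The replicate numbers follow accession order and do not pair samples by label. Deviations from the group means correlated at 0.810 for number 1 and 0.714 for number 2, across genes, and at 0.660 for H2O2 replicate 2 with control replicate 3, which differ in number but share set B. With only 2 H2O2 libraries, their deviations are mirror images, so each value returns with the opposite sign for the other H2O2 library. These correlations are tied to each other by construction and do not test a pairing. Of the recomputed changes of single heat shock genes, 107 kept direction and side of the threshold, 12 lost their call, and 1 reversed: Hspe1 stood at 0.046 on the log2 scale without H2O2 replicate 2, against -0.06 with all libraries, and ranged from -0.152 to 0.046 when 1 library was left out. The log2 change of Hspa1b ranged from 0.32 to 1.96 and that of Hspa1a from 0.27 to 1.23. Their counts are the lowest of the 10. The interaction test called 0 of the 10 under limma-voom, RLE factors and no filter. The causes were not tested.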
